A study of Rattus norvegicus with 6 samples.

Results

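The integrins and laminins are the receptors with which cells hold on to the matrix around them and the matrix proteins that many of those receptors bind. Their genes were taken as every protein-coding entry of the deposited table with an integrin alpha symbol (Itga and a number or letter), an integrin beta symbol (Itgb and a number) or a laminin alpha, beta or gamma chain symbol (Lama, Lamb or Lamc and a digit). This gave 34 of the 34510 genes in the table, of which 24 were integrin subunits (17 alpha and 7 beta) and 10 were laminin chains (4 alpha, 3 beta and 3 gamma). Messenger RNA was sequenced from cultures of neonatal rat ventricular cardiomyocytes, the contracting muscle cells of the newborn rat heart. The Trim28 group (3 libraries) received an adenovirus that expresses TRIM28, a chromatin corepressor. The labels of the comparison group (3 libraries) call it Bgal and say neither what that stands for nor which virus those cells received. All 6 libraries share the cell preparation type, and no dose, time or batch is given in the labels.

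An integrin is a pair of 1 alpha and 1 beta subunit that spans the cell membrane, with the outer part bound to matrix or to another cell and the inner tail coupled to the actin cytoskeleton. A laminin is a cross-shaped trimer of 1 alpha, 1 beta and 1 gamma chain that assembles into the basement membrane, the sheet of matrix that wraps each heart muscle cell, blood vessel and nerve. In heart muscle the laminin with the alpha-2 chain is bound by the integrin alpha-7 beta-1 pair and by dystroglycan, and loss of that chain causes muscular dystrophy in mice and humans.

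Reads assigned to genes ranged from 26146166 to 28298731 in the Trim28 libraries and from 28574951 to 34593292 in the Bgal libraries. Values are FPKM, fragments scaled by gene length and library total. Trim28 itself stood at 2923, 2890 and 980 FPKM in Trim28 replicates 1, 2 and 3, against 81.6, 87.8 and 77.6 FPKM in Bgal replicates 1, 2 and 3, so the overexpression was weakest in the third Trim28 library (limma log2 change 4.60, SE 0.39, adjusted p = 0.000193 over the groups). The summed level of 10 fibroblast markers ran from 743 to 804 FPKM in Trim28 libraries and from 394 to 423 FPKM in Bgal libraries, and 9 of the 10 rose. For 10 smooth muscle and pericyte markers the sums were 1645 to 1744 FPKM and 808 to 1058 FPKM, with 8 higher and 1 lower. For 12 macrophage and leukocyte markers they were 63.9 to 66.0 FPKM and 27.6 to 28.9 FPKM, with all 6 tested members higher and the T cell gene Cd3e at 0 in every library. Sums for 9 endothelial markers were 14.2 to 15.1 FPKM and 13.5 to 14.2 FPKM, with Cldn5 at 0 throughout and, of 4 tested, Flt1 (2.80-fold) and Tek (1.73-fold) higher and Kdr (1.33-fold in Bgal over Trim28) lower. The 9 cardiomyocyte markers summed to 16147 to 17440 FPKM and 16594 to 17581 FPKM, the largest of these sums in both groups. Of them 2 were higher (Nppa and Actn2) and 5 lower (Myl2, Tnni3, Pln, Mybpc3 and Tnnt2). Nppa alone averaged 6368 FPKM in Trim28 and 4335 FPKM in Bgal libraries, so these sums mix its rise with falls of other members. Myl2 was 2.78-fold and Tnni3 1.65-fold in Bgal over Trim28. Sums over 10 mesothelial and epithelial markers were 17.7 to 21.4 FPKM and 18.8 to 23.5 FPKM, and over 8 Schwann cell markers 5.27 to 6.41 FPKM and 4.60 to 5.37 FPKM. Beside these counts, 20.1% of all tested genes were higher and 21.1% lower by the limma threshold used below. In RNA from a whole culture, fewer cells of a type and less RNA per cell cannot be told apart, and the part of other cell types in the results below was not tested.

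Most integrin and laminin transcripts that could be tested were higher in the Trim28 libraries, and a single one was lower. Of the 34 genes, 25 passed the filter of at least 0.5 FPKM in at least 3 libraries, and each of these 25 was at or above 0.5 FPKM in every library. By limma on log2(FPKM + 1), adjusted over all 14808 tested genes with a threshold of 0.05, 15 of the 25 rose and 1 fell. Over all tested genes 41.2% passed, with 20.1% higher and 21.1% lower. The laminins gave 7 higher and 1 lower of 8 tested, and the integrins 8 higher and 0 lower of 17 tested. At an unadjusted p under 0.05, limma gave 0 lower integrins too. The median log2 change of the 25 was 0.22, beside -0.02 for all tested genes. Values of the 2 groups did not overlap for 16 of the 25, with Trim28 libraries higher for 15, while 53.8% of all tested genes showed no overlap and 26.0% did so with Trim28 libraries higher. The plot of levels by library and the plot of log2 changes show 24 of these 25 genes.

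**Figure D1:**
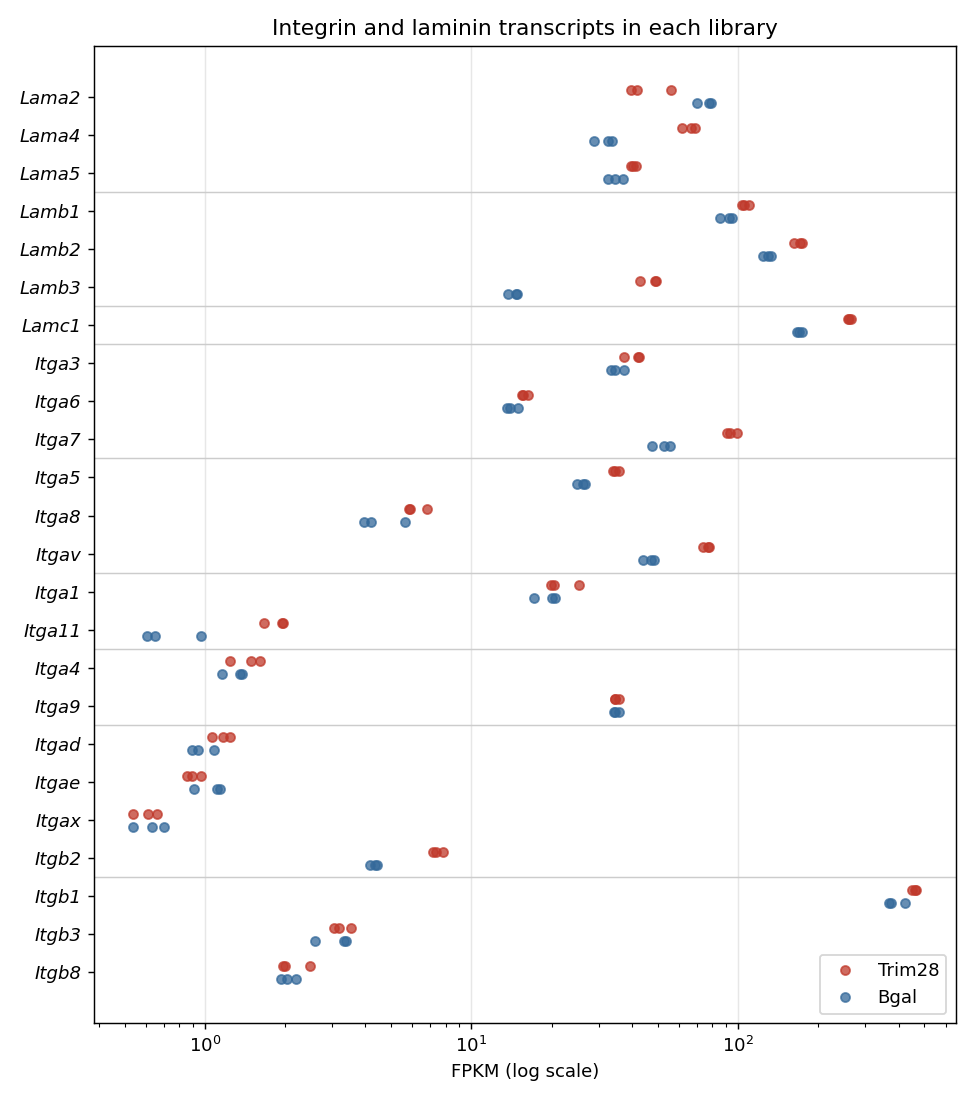
FPKM (horizontal log axis) of 24 of the 25 tested integrin and laminin genes, with 1 point per library, Trim28 libraries in red above Bgal libraries in blue, and horizontal lines between groups of like function. Itgb1 is the highest gene in all libraries, at 448 to 466 FPKM in Trim28 and 368 to 423 FPKM in Bgal libraries, and Lama2 is the one gene whose red points all lie left of the blue ones.

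**Figure D2:**
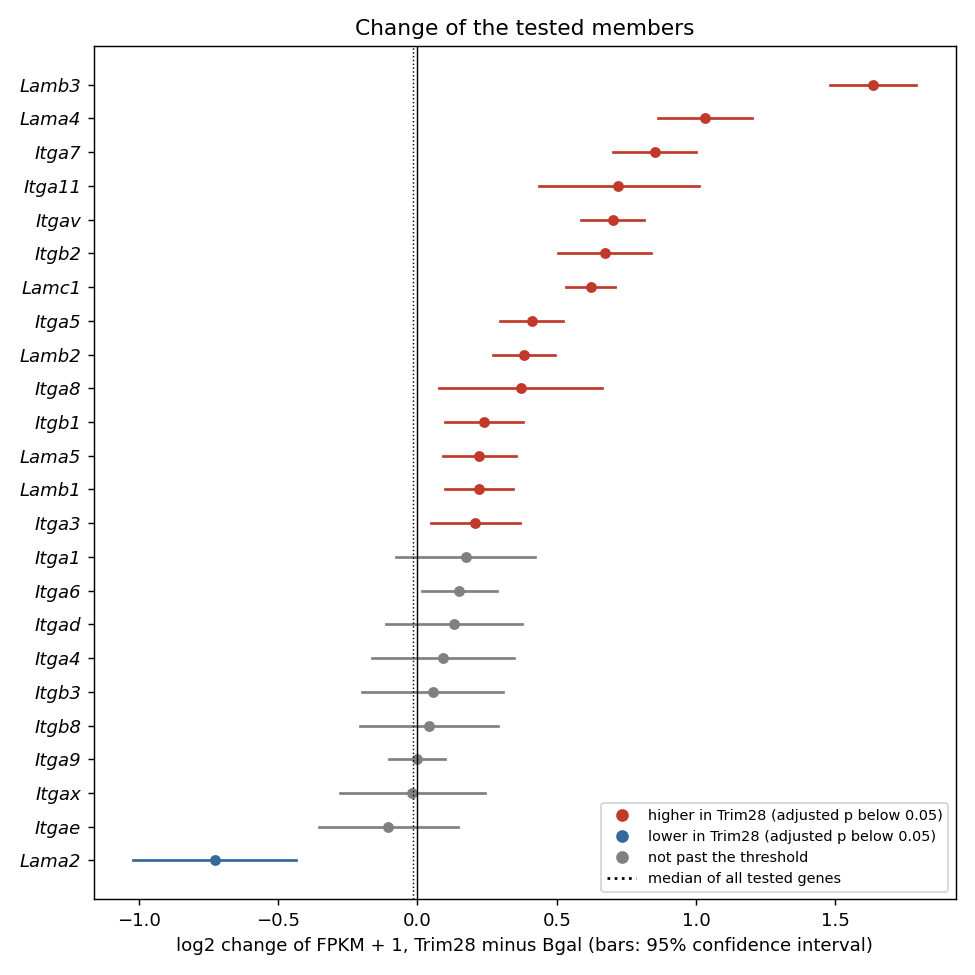
Log2 change of FPKM + 1, Trim28 minus Bgal, for 24 of the 25 tested genes, with 95% confidence intervals from limma as bars, the zero line solid and the median of all tested genes dotted. The changes run from 1.64 for Lamb3 down to -0.73 for Lama2, and 9 genes in grey did not pass the threshold.

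The laminin alpha chains, which carry the sites bound by integrins and dystroglycan, moved in opposite directions. Lama2, the alpha chain of adult muscle basement membrane (ENSRNOG00000011134, chromosome 1, 18491384 to 19143269, plus strand), had 41.8, 39.5 and 55.8 FPKM in Trim28 replicates 1 to 3, against 78.8, 69.8 and 77.9 FPKM in Bgal replicates 1 to 3. Every Trim28 library lay below every Bgal library, and the third Trim28 library was the nearest to them. Lama2 fell by 0.73 on the log2(FPKM + 1) scale (SE 0.12, limma adjusted p = 0.00326), which is 1.65-fold in mean FPKM. Lama4, the alpha chain of vessel walls and of embryonic muscle (ENSRNOG00000000599, chromosome 20, 44060731 to 44209614, plus strand), had 69.2, 66.6 and 61.5 FPKM in Trim28 replicates 1 to 3, against 28.8, 32.5 and 33.8 FPKM in Bgal replicates. The groups were far apart, and Lama4 rose 2.08-fold (log2 change 1.03, SE 0.07, limma adjusted p = 0.000104). Lama5, an alpha chain of many basement membranes, had 40.5, 41.4 and 39.6 FPKM in Trim28 libraries, against 34.6, 36.9 and 32.5 FPKM in Bgal libraries. Its rise was small (1.17-fold, log2 change 0.22, limma adjusted p = 0.0163) and was not called without Trim28 replicate 1 (adjusted p = 0.0504) or Trim28 replicate 2 (adjusted p = 0.0576). Lama1, the early embryonic alpha chain, stood at 0.102 to 0.139 FPKM in Trim28 and 0.108 to 0.178 FPKM in Bgal libraries and was not tested. All gene positions come from the deposited table, and no source used here names its genome build.

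Because Lama2 and Lama4 take the same place in the trimer and FPKM is per length, their levels can be set against each other within a library. The ratio of Lama4 to Lama2 was 1.66, 1.68 and 1.10 in Trim28 replicates 1 to 3, against 0.365, 0.466 and 0.434 in Bgal replicates 1 to 3. By FPKM, Lama4 was thus above Lama2 in all Trim28 libraries and below it in all Bgal libraries. The order in Trim28 libraries depends on the division by gene length. Of alpha chain reads not so divided, Lama4 made up 32.45%, 31.9% and 27.21% in Trim28 replicates 1 to 3. Lama2 made up 31.25%, 30.21% and 39.34% of them, and so was above Lama4 in replicate 3. Of the summed alpha chain FPKM, Lama2 made up 29.95% ± 4.84 in Trim28 and 53.2% ± 2.73 in Bgal libraries (SD, n = 3 each, exact permutation p = 0.1, two-sided, the smallest that 3 against 3 allows). Lama4 made up 43.3% ± 3.58 and 22.3% ± 1.83 in the same groups. Lama5 made up 26.7% ± 1.42 and 24.4% ± 1.99, with overlapping libraries. On reads not divided by gene length its share was 33.4% to 37.8% in Trim28 and 28.1% to 32.8% in Bgal libraries, which do not overlap, a difference of 5.55 percentage points against 2.25 by FPKM. The summed alpha chain level differed little, at 152 ± 4.70 FPKM in Trim28 and 142 ± 2.46 FPKM in Bgal libraries, 1.07-fold. Fibroblast markers (9 of 10 higher) and smooth muscle and pericyte markers (8 of 10 higher, with Abcc9 lower) rose in the same libraries as Lama4. Of 4 tested endothelial markers, 2 were higher and 1 lower. Over all tested genes 20.1% were higher and 21.1% lower. The part of these cell types in the changes of Lama4 and Lama2 was not tested.

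The promoter windows of 3 laminin genes that moved apart are shown because Lama2 fell, Lama4 rose and Lamb3 had the largest rise. Each runs from 250 bases before to 50 bases after the gene's start on its own strand, from RefSeq on build GRCr8, and 25 of the 34 genes had such a window. Capitals mark matches, on either strand, to 1 of 5 motifs. The motif of AP-1, a stress and growth factor response complex, was searched as TGANTCA. The cyclic AMP response element was searched as TGACGTCA. For the GC box, a site of Sp-family factors, the letters were GGGCGG. For the TATA box, which places the start of transcription, the letters were TATAAA. The motif of the TEAD factors, which act downstream of Hippo signalling, was searched as GGAATG. No searched motif overlapped another in these 3 windows.
Lama2 (chr1:19491896-19492195, plus strand): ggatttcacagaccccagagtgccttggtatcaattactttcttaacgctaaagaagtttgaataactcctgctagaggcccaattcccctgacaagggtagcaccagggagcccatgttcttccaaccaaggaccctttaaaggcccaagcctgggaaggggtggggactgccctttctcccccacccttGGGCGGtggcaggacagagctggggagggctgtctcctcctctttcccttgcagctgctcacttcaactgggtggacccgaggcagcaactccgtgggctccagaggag
Lama4 (chr20:43946648-43946947, plus strand): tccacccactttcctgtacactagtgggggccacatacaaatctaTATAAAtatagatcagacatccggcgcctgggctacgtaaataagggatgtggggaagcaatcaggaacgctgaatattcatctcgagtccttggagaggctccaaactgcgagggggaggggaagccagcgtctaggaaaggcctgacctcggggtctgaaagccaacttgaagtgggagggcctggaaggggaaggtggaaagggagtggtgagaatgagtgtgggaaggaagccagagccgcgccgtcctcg
Lamb3 (chr13:107362303-107362602, plus strand): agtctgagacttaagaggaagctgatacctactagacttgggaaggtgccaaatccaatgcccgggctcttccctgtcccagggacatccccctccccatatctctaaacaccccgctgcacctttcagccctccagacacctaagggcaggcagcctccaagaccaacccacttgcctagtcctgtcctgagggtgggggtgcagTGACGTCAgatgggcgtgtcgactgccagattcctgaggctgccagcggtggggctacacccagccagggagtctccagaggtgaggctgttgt
The Lama2 window holds a GC box 59 bases before the start, and 33.1% of the 33469 windows in the table hold at least 1. Lama4 has a TATAAA 205 bases before the start, found in 14.2% of windows. Lamb3 has a TGACGTCA 44 bases before the start, found in 1.83% of windows. GC content was 57.0%, 55.0% and 59.3% in these 3 windows, beside a median of 51.7% over all windows. Over the 25 integrin and laminin genes with a window, 14 held the GC box, 7 the TEAD motif, 2 the TATA box and 1 each the AP-1 motif and the cyclic AMP response element. Over all windows the TEAD motif was in 14.2% and the AP-1 motif in 7.33%. The motifs were chosen with the results known, and these matches describe letters only, with no measure of binding.

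Among the beta chains, the one known from epithelial basement membranes rose most. Lamb3, the beta-3 chain (ENSRNOG00000006025, chromosome 13, 112031594 to 112073186, plus strand), had 48.6, 49.3 and 42.9 FPKM in Trim28 replicates 1 to 3, against 13.7, 14.7 and 14.9 FPKM in Bgal replicates. That was the largest rise of the 25 genes, 3.26-fold (log2 change 1.64, SE 0.07, limma adjusted p = 1.75e-05). In epithelia the beta-3 chain pairs with the alpha-3 chain. No row carries the symbol Lama3, but 1 protein-coding entry is described in the deposited table by its likeness to mouse laminin alpha-3 (ENSRNOG00000011300). That entry stood at 0.136, 0.0949 and 0.232 FPKM in Trim28 libraries, against 0.115, 0.120 and 0.122 FPKM in Bgal libraries, with 25 to 67 reads per library, and was too low to be tested. The sums of 10 mesothelial and epithelial markers overlapped between the groups. Of 8 tested, 3 rose (Msln, Wt1 and Upk1b) and 3 fell (Krt8, Krt18 and Upk3b). That is 37.5% higher, beside 20.1% higher and 21.1% lower over all tested genes. Epcam was not tested, with 0 to 3 reads in Trim28 and 6 to 18 reads in Bgal libraries.

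Lamc1, the gamma chain shared by most laminins (ENSRNOG00000002680, chromosome 13, 70658707 to 70783515, minus strand), was at 265.9, 258.5 and 259.9 FPKM in Trim28 libraries, against 169.7, 173 and 166 FPKM in Bgal libraries. Lamc1 rose 1.54-fold (log2 change 0.62, SE 0.04, limma adjusted p = 7.32e-05), and its libraries were close together within each group. Lamb1 and Lamb2, the beta chains of heart and vessel laminins, changed less. Lamb1 had 103.6, 105.1 and 109.5 FPKM in Trim28 libraries, against 92.5, 95.1 and 85.3 FPKM in Bgal libraries (log2 change 0.22, limma adjusted p = 0.0125). Lamb2 had 170.1, 173 and 161.5 FPKM in Trim28 libraries, against 129.7, 133 and 124 FPKM in Bgal libraries (log2 change 0.38, limma adjusted p = 0.000821). Both rose with no overlap between the groups. As a share of the summed beta chain FPKM, Lamb3 made up 14.6% ± 0.812 in Trim28 and 6.16% ± 0.425 in Bgal libraries (SD, n = 3 each), while Lamb1 made up 33.03% ± 1.61 and 38.8% ± 0.614. The summed beta chains were 1.37-fold higher in Trim28 libraries, at 321 ± 6.94 FPKM, against 234 ± 9.73 FPKM in Bgal libraries (SD, n = 3 each, exact permutation p = 0.1, the smallest possible). Lamc3, a gamma chain of retina and nerve, had at most 9 reads in a library and was not tested.

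**Figure D3:**
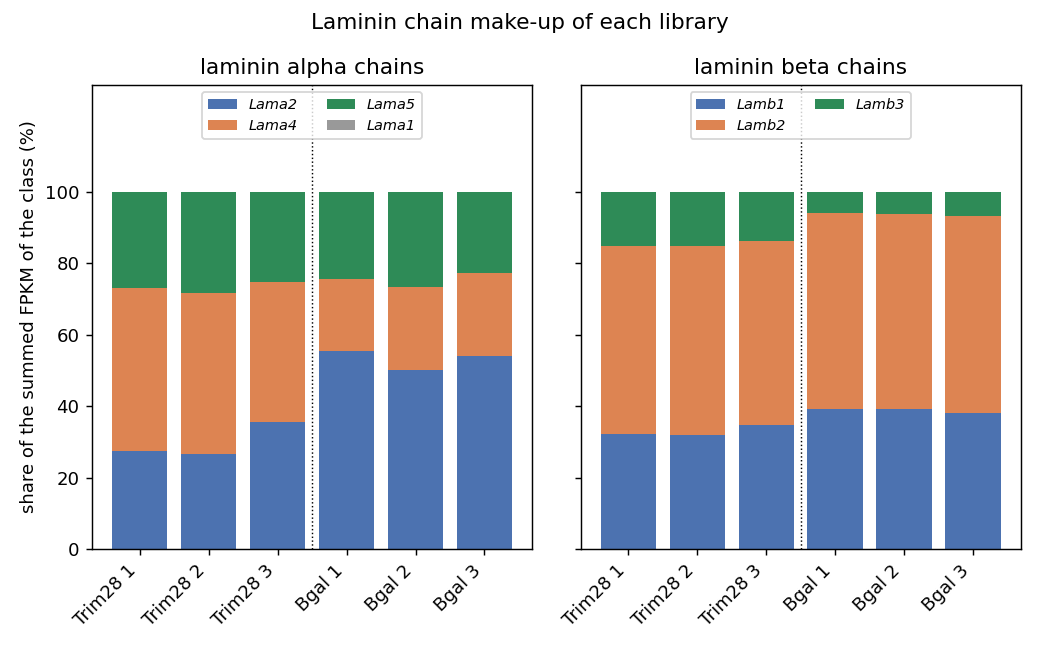
Share (percent) of each chain in the summed FPKM of the laminin alpha and beta chains, as stacked bars with 1 bar per library, the 3 Trim28 libraries left of the dotted line and the 3 Bgal libraries right of it. Lama2 takes 26.8% to 35.5% of the alpha bars in Trim28 and 50.1% to 55.4% in Bgal libraries, and Lamb3 takes 13.7% to 15.1% of the beta bars in Trim28 and 5.82% to 6.64% in Bgal libraries.

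Of the 3 integrin alpha subunits that bind laminin, Itga7 and Itga3 rose and Itga6 did not pass. Itga7, the main laminin receptor subunit of heart and skeletal muscle (ENSRNOG00000007905, chromosome 7, 3355116 to 3384675, plus strand), had 93.0, 98.95 and 91.0 FPKM in Trim28 replicates 1 to 3, against 52.7, 55.4 and 47.5 FPKM in Bgal replicates. All Trim28 libraries were above all Bgal libraries, and Itga7 rose 1.82-fold (log2 change 0.85, SE 0.06, limma adjusted p = 0.000131). It was the most abundant alpha subunit in both groups and its share of the alpha subunit FPKM was 28.4% ± 0.787 in Trim28 and 21.8% ± 1.38 in Bgal libraries. Itga3, a receptor subunit for laminins with alpha-3 or alpha-5 chains, had 42.2, 42.5 and 37.3 FPKM in Trim28 libraries, against 33.2, 37.4 and 34.7 FPKM in Bgal libraries. The groups overlapped, and Itga3 passed narrowly (log2 change 0.21, limma adjusted p = 0.0448). That call was lost without Trim28 replicate 1 (adjusted p = 0.132), Trim28 replicate 2 (0.134), Bgal replicate 1 (0.136) or Bgal replicate 3 (0.103) and with no filter (0.0776). Itga6, a laminin receptor subunit of many cell types, had 16.3, 15.5 and 15.5 FPKM in Trim28 libraries, against 13.9, 14.9 and 13.6 FPKM in Bgal libraries. It did not pass (log2 difference 0.15, 95% confidence interval 0.02 to 0.28, limma adjusted p = 0.0711), except when FPKM was rescaled by median ratios (adjusted p = 0.0421).

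Integrin alpha subunits that recognise the RGD tripeptide of fibronectin, vitronectin and related ligands rose as well. Itgav, which pairs with several beta subunits and can activate latent TGF-beta (ENSRNOG00000004912, chromosome 3, 71114100 to 71202411, plus strand), had 73.7, 77.5 and 77.1 FPKM in Trim28 libraries, against 48.2, 44.05 and 47.1 FPKM in Bgal libraries. It rose 1.64-fold with no overlap (log2 change 0.70, SE 0.05, limma adjusted p = 0.000103). Itga5, the fibronectin receptor subunit (ENSRNOG00000057451, chromosome 7, 144970444 to 144993652, minus strand), had 34.0, 35.7 and 34.6 FPKM in Trim28 libraries, against 24.9, 26.3 and 26.7 FPKM in Bgal libraries. It rose 1.34-fold, also without overlap (log2 change 0.41, SE 0.05, limma adjusted p = 0.00069). Itga8, a nephronectin receptor subunit of mesenchymal cells, had 5.83, 5.88 and 6.79 FPKM in Trim28 libraries, against 4.18, 3.94 and 5.61 FPKM in Bgal libraries. The groups nearly touched, with Bgal replicate 3 close to the Trim28 libraries (log2 change 0.37, limma adjusted p = 0.0485). This call held without Bgal replicate 3 (adjusted p = 0.0109) and was lost without Trim28 replicate 1 (0.0800), 2 (0.0838) or 3 (0.127), without Bgal replicate 1 (0.137) or 2 (0.135) and with no filter (0.0992). Itga2b, the platelet fibrinogen receptor subunit, stood at 0.401 to 0.596 FPKM in Trim28 and 0.255 to 0.387 FPKM in Bgal libraries and was not tested.

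Of the collagen-binding alpha subunits, Itga11, which marks matrix-producing fibroblasts (ENSRNOG00000006723, chromosome 8, 67615635 to 67683973, plus strand), rose 2.51-fold. It had 1.67, 1.96 and 1.95 FPKM in Trim28 libraries, against 0.651, 0.969 and 0.605 FPKM in Bgal libraries, on 215 to 259 reads and 96 to 130 reads per library. The log2 change of FPKM + 1 was 0.72 (SE 0.12, limma adjusted p = 0.00318), and it was 1.36 on recovered reads with limma-voom, where no pseudocount of 1 FPKM is added. Fibroblast markers rose in the same libraries (9 of 10 higher, beside 20.1% of all tested genes), and their part in this rise was not tested. Itga1, the more abundant collagen receptor subunit, had 19.9 to 25.4 FPKM in Trim28 and 17.2 to 20.5 FPKM in Bgal libraries and did not pass (log2 difference 0.17, 95% confidence interval -0.08 to 0.42, limma adjusted p = 0.231). It overlaps Pelo on the same strand in the deposited coordinates, so reads of the 2 genes may not be separable. Itga9 and Itga4, a closely related pair of subunits that bind cell surface and matrix ligands such as VCAM-1, did not pass. Itga9 had 34.4 to 35.6 FPKM in Trim28 and 34.2 to 35.9 FPKM in Bgal libraries, with a 95% confidence interval of -0.10 to 0.10 for the log2 difference (limma adjusted p = 0.979). Itga4 had 1.25 to 1.61 FPKM in Trim28 and 1.16 to 1.38 FPKM in Bgal libraries (log2 difference 0.09, 95% confidence interval -0.16 to 0.35, limma adjusted p = 0.536).

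Leukocyte integrins were present at low levels, and 1 of the 4 that were tested rose. This count is near the share over all tested genes, of which 20.1% were higher and 21.1% lower. Itgb2, the beta subunit shared by the leukocyte integrins (ENSRNOG00000001224, chromosome 20, 11777783 to 11815647, minus strand), had 7.79, 7.15 and 7.39 FPKM in Trim28 libraries, against 4.15, 4.40 and 4.34 FPKM in Bgal libraries. It rose 1.73-fold (log2 change 0.67, SE 0.07, limma adjusted p = 0.000463), in the libraries in which all 6 tested macrophage and leukocyte markers rose. Its alpha partner Itgal, used by lymphocytes and monocytes, had 63, 55 and 51 reads in Trim28 libraries, against 30, 13 and 28 reads in Bgal libraries. Itgal did not reach the filter. Without a filter it passed (log2 change 0.33, limma adjusted p = 0.0106). Itgad, Itgae and Itgax, other leukocyte alpha subunits, stood between 0.538 and 1.24 FPKM in Trim28 libraries and between 0.538 and 1.14 FPKM in Bgal libraries and did not pass (limma adjusted p = 0.352, 0.467 and 0.915). Itgad and Itgax overlap each other on the same strand in the deposited coordinates, and Itgae overlaps 4 other genes on its strand, among them Ncbp3 at 9.49 to 10.3 FPKM in Trim28 and 10.7 to 11.9 FPKM in Bgal libraries. Their values are therefore uncertain. Itgb7, a lymphocyte beta subunit, had 5 to 10 reads in Trim28 and 1 to 4 reads in Bgal libraries and was not tested. No row carries the symbol Itgam, a further leukocyte alpha subunit, so its level is not known here.

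The beta subunits were dominated by Itgb1, the common partner of the laminin, collagen and fibronectin receptors (ENSRNOG00000010966, chromosome 19, 61677542 to 61725535, plus strand). It had 460.4, 448 and 466 FPKM in Trim28 libraries, against 368, 375.5 and 423 FPKM in Bgal libraries. Of the summed FPKM of the 7 beta members, which leaves out Itgb5, Itgb1 made up 97.1% ± 0.133 and 97.5% ± 0.205 in these groups. It rose 1.18-fold (log2 change 0.24, SE 0.06, limma adjusted p = 0.0162). Among the alpha subunits that can pair with it, the log2 change was above this for Itga7, Itga11, Itgav, Itga5 and Itga8 and below it for Itga3, Itga1, Itga6, Itga4 and Itga9, and these differences from Itgb1 were not tested. The call of Itgb1 was lost without Trim28 replicate 1 (adjusted p = 0.054) or Bgal replicate 2 (adjusted p = 0.05). Summed over the 17 alpha members, the level was 332 ± 6.17 FPKM in Trim28 and 238 ± 5.23 FPKM in Bgal libraries, 1.40-fold. Over the 7 beta members it was 471.5 ± 9.35 and 399 ± 29.8 FPKM, 1.18-fold (SD, n = 3 each, exact permutation p = 0.1 for each sum, the smallest possible). Itgb3, the vitronectin receptor subunit, had 3.52, 3.17 and 3.05 FPKM in Trim28 libraries, against 2.60, 3.38 and 3.32 FPKM in Bgal libraries, and missed the threshold (log2 difference 0.05, 95% confidence interval -0.20 to 0.31, limma adjusted p = 0.72). Itgb8, which pairs with Itgav, also did not pass, at 1.96 to 2.49 FPKM in Trim28 and 1.93 to 2.20 FPKM in Bgal libraries (limma adjusted p = 0.785). Itgb4 and Itgb6, beta subunits of epithelia, were at or below 0.483 FPKM in every library and were not tested. Itgb5, a further partner of Itgav, is classed as a processed transcript in the deposited table and so is not among the 34. It had 21.5, 22.7 and 23.7 FPKM in Trim28 libraries, against 23.5, 24.4 and 22.5 FPKM in Bgal libraries, and did not pass (log2 difference -0.05, 95% confidence interval -0.18 to 0.08, limma adjusted p = 0.517). That level was above every beta member but Itgb1. The beta sums and shares above leave Itgb5 out, and the share of Itgb1 with Itgb5 included was not computed.

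The 9 genes below the filter never exceeded 0.596 FPKM. They were Itga2, Itga2b, Itga10, Itgal, Itgb4, Itgb6, Itgb7, Lama1 and Lamc3. Itga2 and Itga10, further collagen receptor subunits, stood at 0.226 to 0.279 and 0.0569 to 0.159 FPKM in Trim28 libraries, against 0.0948 to 0.166 and 0.0223 to 0.0693 FPKM in Bgal libraries. Without a filter, Itgal was the only one of the 9 that passed.

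Transcripts for the proteins that couple integrins to the cytoskeleton included 18 that rose and 5 that fell of 32 tested (34 in the table). That is 56.2% higher, beside 20.1% of all tested genes, with a median log2 change of 0.34 for the list. Lims1, which encodes PINCH-1, a partner of integrin-linked kinase, averaged 57.5 ± 4.46 FPKM in Trim28 and 26.6 ± 2.32 FPKM in Bgal libraries (log2 change 1.09, limma adjusted p = 0.000119). The actin crosslinker gene Actn4 and the LIM protein gene Csrp1 rose 1.80-fold and 1.79-fold, and the scaffold gene Nedd9 1.71-fold. Among the members that fell was Itgb1bp1, which encodes ICAP1, a protein that holds the beta-1 tail in its inactive state. It averaged 32.5 ± 1.95 FPKM in Trim28 and 44.9 ± 0.584 FPKM in Bgal libraries (limma adjusted p = 0.00065). Parva and Parvb, the parvins that complete the complex of PINCH and integrin-linked kinase, went opposite ways, with 86.8 ± 3.27 and 50.2 ± 1.53 FPKM in Trim28 libraries, against 58.6 ± 2.58 and 64.4 ± 1.58 FPKM in Bgal libraries (limma adjusted p = 0.000239 and 0.000815). Itgb1bp2, the muscle protein melusin, did not pass, at 69.7 ± 4.65 FPKM in Trim28 and 68.2 ± 5.24 FPKM in Bgal libraries. Itgb1bp1, Itgb1bp2 and the parvins were picked with their values known.

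Of 18 further basement membrane genes in the deposited table, all tested, 11 rose and 2 fell, with a median log2 change of 0.46. That is 61.1% higher, beside 20.1% higher and 21.1% lower over all tested genes. The list held 19 genes, and no row carries the symbol of the remaining one, Hspg2. Nid1 and Nid2, the nidogens that link laminin to collagen IV, averaged 41.4 ± 0.995 and 20.3 ± 0.702 FPKM in Trim28 libraries, against 21.7 ± 0.649 and 9.68 ± 0.900 FPKM in Bgal libraries (limma adjusted p = 4.19e-05 and 0.00012). Col4a1 and Col4a2, the chains of the common collagen IV trimer, rose 1.63-fold and 1.67-fold. The 2 that fell were Col4a3 and Col4a4, chains of the collagen IV of kidney glomerulus and lung, picked with their values known. Col4a3 averaged 4.23 ± 0.232 FPKM in Trim28 and 8.99 ± 2.83 FPKM in Bgal libraries, and Col4a4 20.4 ± 0.992 and 29.4 ± 3.51 FPKM (limma adjusted p = 0.00652 and 0.00331). The fibroblast markers rose in the same libraries, and their part in these rises was not tested.

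Among ligands of integrins other than laminin, 9 of 14 tested rose and 0 fell, of 20 in the table, with a median log2 change of 0.66. That is 64.3% higher, beside 20.1% higher and 21.1% lower over all tested genes. At an unadjusted p under 0.05 limma gave 0 lower as well. The rises included the thrombospondin genes Thbs1 (2.42-fold) and Thbs2 (2.60-fold), the matricellular gene Ccn2 (3.16-fold) and the microfibril gene Fbn1 (1.58-fold), with limma adjusted p-values from 2.54e-05 for Thbs2 to 0.000444 for Ccn2. Fn1, fibronectin, the ligand of the Itga5 pair, was picked with its values known and did not pass, at 263 ± 5.53 FPKM in Trim28 and 244.5 ± 16.6 FPKM in Bgal libraries (limma adjusted p = 0.165). Counter-receptors on other cells gave 5 higher and 1 lower of 7 tested (71.4% higher, beside the same 20.1%). Icam1, a ligand of the Itgb2 integrins, rose 1.89-fold, and the junctional adhesion molecule genes Jam2 and Jam3 rose 1.64-fold and 1.26-fold. Adam15, a membrane protease with an integrin-binding domain, rose 1.45-fold. Of 7 tested tetraspanin and hemidesmosome genes 6 rose (85.7%, beside 20.1% of all tested genes) and 0 fell (0 lower also at an unadjusted p under 0.05 in limma). Cd151, the tetraspanin bound to laminin-binding integrins, averaged 2.64 ± 0.271 FPKM in Trim28 and 1.18 ± 0.226 FPKM in Bgal libraries, and Cd82, Cd81 and Cd63 rose 1.45-fold, 1.37-fold and 1.28-fold.

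Dystroglycan and the dystrophin complex are the other route from laminin into the muscle cell. Of 18 genes, all tested, 5 rose and 5 fell (27.8% each way), near the shares over all tested genes of 20.1% higher and 21.1% lower. The median log2 change was 0.05. Sgce, epsilon-sarcoglycan, rose 1.40-fold (limma adjusted p = 0.00268). Utrn, utrophin, averaged 15.6 ± 0.191 FPKM in Trim28 and 20.1 ± 0.656 FPKM in Bgal libraries, and fell (limma adjusted p = 0.00158). Dag1, dystroglycan itself, was picked with its values known and rose 1.17-fold (limma adjusted p = 0.00706).

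**Figure D4:**
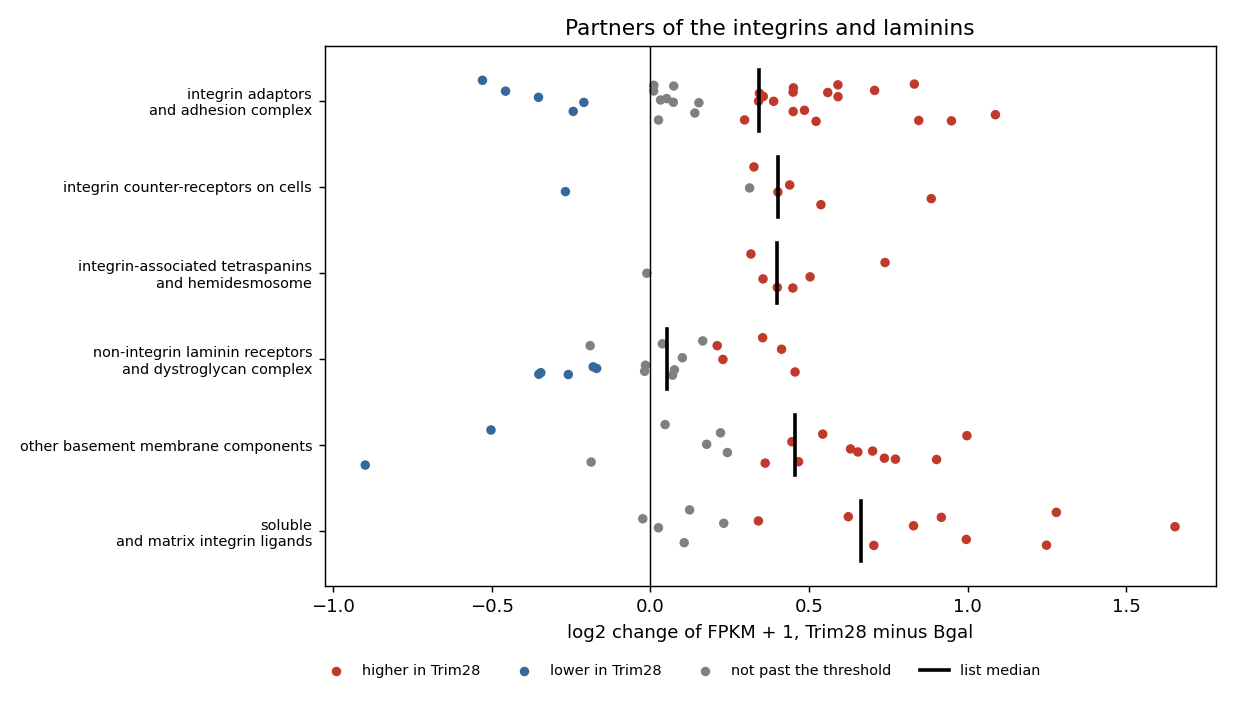
Log2 change of FPKM + 1, Trim28 minus Bgal (horizontal axis), for the tested genes of 6 partner lists, with 1 point per gene, spread vertically only for legibility, and a black bar at each list's median. Points past the limma threshold are red where higher and blue where lower in Trim28 libraries, and the list medians run from 0.05 for the dystroglycan complex to 0.66 for the integrin ligands.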

How the data were processed

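Poly(A) RNA of 3 Trim28 and 3 Bgal libraries was sequenced, per the labels' protocols from stranded (dUTP) libraries. The authors deposited FPKM values, per the file headers, in 1 column per library for 34510 genes, with no pooling and 0 columns of other samples. HISAT2 2.0.5 and DESeq2 are named in the submitters' processing notes. The counting tool, strand setting, build and annotation are not given in any source used, and gene length is the deposited table's own. FPKM falls for all genes when a few take more reads.

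In each library FPKM times gene length came in whole steps, for 100% of values above 0 (within 0.01), which gave reads per gene for depth and for limma-voom. Genes reaching 0.5 FPKM in 3 or more libraries were transformed to log2(FPKM + 1) and compared with limma 3.58.1 (R 4.3.3, intensity trend, two-sided, Benjamini-Hochberg over 14808 genes, threshold 0.05), after a test on simulated data. The design allows exact permutation p-values no lower than 0.1. Shares of a subunit are of the summed FPKM of its class among the 34 genes in a library, with 34 shares tested and a smallest Benjamini-Hochberg adjusted p of 0.155.

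Replicate libraries were no copies of each other (chi-square per degree of freedom 6.78 to 18.1), so each was counted as 1 replicate. The labels do not say that they came from separate cultures, so p-values cover the spread among these libraries alone, which may be technical. Members, lists and the rule for named genes (every called member at or above 1 FPKM, a fixed set of main subunits, and up to 4 called genes per partner list by p) were chosen with earlier results of these data known, so no p is adjusted over a list alone. Some genes that the rule names are not reported here. Alternatives were another pseudocount, other filters, median-ratio scaling, limma-voom, the replicate block and leaving out each library.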

Additional observations from a re-analysis of the deposited data

How the results depend on the processing

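Of the 16 called genes, 12 passed under all 12 alternatives, and the other 4, Itga3, Itga8, Itgb1 and Lama5, are given with their values beside the results. The number of integrin and laminin genes that rose was 15 with a pseudocount of 0.1, with the 1 FPKM filter and in limma-voom, 14 with no filter and 16 with median-ratio scaling, and 11 to 14 when 1 library was left out, with 1 lower in each of these. Partner lists gave 54 higher and 13 lower, and 51 to 55 and 11 to 13 when 1 library was left out. The numbers tested are given list by list in the results, and over all tested genes 20.1% were higher and 21.1% lower. Same-numbered libraries showed correlations of their deviations of -0.0164, 0.134 and 0.00915, of which 0.134 was the largest over all pairs of a Trim28 and a Bgal library. These values cannot settle whether the numbers pair the libraries, and the labels do not say. With the replicate block 15 members rose and 1 fell, and no call of a member changed. In that fit Trim28 changed by 4.60 on the log2 scale, and partner lists gave 56 higher and 13 lower. Shares of subunits were not overlapping for 22 of 34, and for 23 on reads not divided by length. The count was 24 to 26 when 1 library was left out, but leaving out a library can only keep or raise it, so that range is no check. Shares within a class also depend on each other. Genes near 0 changed sign: Itga9 was at 0.0246 with median-ratio scaling and at -0.017 to 0.0182 over the left-out libraries, Itgax at -0.0572 to 0.0168, Itgb3 at -0.0373 to 0.105 and Itgb8 at -0.0353 to 0.0832. The difference in share between Trim28 and Bgal libraries moved, on undivided reads, to 15.99 percentage points for Lama4 (20.97 by FPKM), 5.55 for Lama5 (2.25 by FPKM) and 6.39 for Lamb3 (8.44 by FPKM). Depth limits the 9 untested genes. The confidence intervals, like the p-values, rest on the spread among the 3 libraries of each group.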

Other observations

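Trim28 replicate 3, with 980 FPKM of Trim28 against 2923 and 2890 FPKM in replicates 1 and 2, was the Trim28 library nearest to the Bgal mean for 7 of the 16 called integrin and laminin genes (43.8%), namely Lama2, Lama4, Lama5, Lamb2, Lamb3, Itga3 and Itga7. Over all 6097 called genes the share was 44.1%. Lama2 was at 55.8 FPKM in that library and at 41.8 and 39.5 FPKM in the other two Trim28 libraries. Without that library its log2 change was -0.88, and with all libraries -0.73.

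Itgbl1, a secreted protein gene with integrin-like repeats that is not an integrin subunit, had 18.8, 19.3 and 21.1 FPKM in Trim28 libraries, against 10.2, 10.7 and 10.8 FPKM in Bgal libraries, and rose 1.87-fold (limma adjusted p = 0.000121). It was picked with its values known.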
